A study of Rattus norvegicus with 9 samples.

Results

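The genes described here mark the precursors of oligodendrocytes, the myelin-forming cells of the central nervous system, and the steps by which they differentiate: Pdgfra, Cspg4, Vcan, Olig1, Olig2, Sox10, Gpr17, Bmp4, Enpp6 and Bcas1. They were taken by name from the deposited expression table, in which all 10 were found among 34890 loci, each once. RNA had been sequenced from the L3-L6 spinal cord of wild-type (WT) male Sprague Dawley rats in 3 groups of 3 samples. JA rats were sham-operated, with the nerve exposed but neither ligated nor cut, and were given oral saline. SNI rats had a spared nerve injury, in which 2 branches of the sciatic nerve (tibial and common peroneal) were ligated and cut and the sural branch was left whole, and were given saline too. PLM rats had the same injury and were given paeoniflorin at 20.65 mg/ml together with liquiritin, for which the sample labels give 3.98, 3.99 and 3.100 mg/ml for replicates 1, 2 and 3. The study's methods describe a single middle dose for this group, so the labels may not mean that the replicates were dosed differently. The rats' age is not given in the sources used here, the tissue was the injured side of the cord taken whole, and every rat, sham included, had an operation. The comparisons ask what the injury did to the cord (SNI versus JA), what the drug pair did in injured rats (PLM versus SNI) and how treated injured rats stood against sham rats (PLM versus JA).

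Oligodendrocyte precursors are dividing cells spread through the adult cord that sense platelet-derived growth factor through Pdgfra and carry the proteoglycan NG2, the product of Cspg4. When they commit to differentiate they lose these surface proteins, pass through a short stage marked by Gpr17 and Bmp4, then a newly formed stage marked by Enpp6 and Bcas1, and at last make myelin. Olig1, Olig2 and Sox10 are transcription factors that are kept through the whole lineage. The genes therefore report stages of 1 lineage, but in bulk tissue fewer cells of a type and less RNA per cell cannot be told apart.

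No member passed the test in any of the 3 comparisons. The largest difference between groups that did not overlap was that of Enpp6 as deposited, which averaged 34.4 TPM in JA and 17.0 TPM in PLM, a ratio of 0.494. TPM is a level corrected for transcript length and scaled so that every sample has the same total. It keeps no read depth, so no counting error can be given. Fold changes are differences of log2(TPM + 1), a scale on which genes of low TPM appear to change less than they do, and were tested with limma over all genes with a mean of at least 1 TPM. A gene was called where the adjusted p (Benjamini-Hochberg) was under 0.05. Errors on levels are SD over 3 samples, and the labels call the samples biological replicates.

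The samples correlated at r between 0.946 and 0.966 over 36 pairs. Genes of mitochondrial proteins (13) took 25.3% to 32.8% of the TPM in the JA samples, 23.7% to 26.1% in the SNI samples and 31.3% to 32.8% in the PLM samples. The middle of all genes tested shifted between groups, with a median log2 fold change of 0.12 for SNI versus JA, -0.21 for PLM versus SNI and -0.10 for PLM versus JA. Fold changes were therefore computed as deposited and after each sample was centred on its median log2 value. Centring brings those medians to -0.01, 0.04 and 0.03. Where no scale is named, the value is as deposited.

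Levels spanned a wide range within the lineage. Averaged over the 9 samples, Bcas1 was at 794.3 TPM, above 99.2% of the 15503 genes with a mean of at least 1 TPM. Olig1 followed at 219.9 TPM, then Sox10 at 68.8, Olig2 at 48.1 and Enpp6 at 26.4 TPM. These 5 stood apart from each other in every sample, since the highest Enpp6 value, 40.24 TPM, was below the lowest Olig2 value, 41.26 TPM, and the ranges of Olig2 and Sox10 did not meet. The remaining 5 lay close together: Bmp4 averaged 8.79 TPM, Vcan 8.07, Pdgfra 7.73, Gpr17 7.06 and Cspg4 5.22 TPM, and the sample ranges of the first 4 overlapped, so their order is not fixed by these data. Every Cspg4 value, at most 5.85 TPM, was below every Pdgfra and Vcan value, while its range overlapped those of Gpr17 and Bmp4. The markers of dividing precursors were thus near or below the middle of all genes, while Mbp, the gene of a major myelin protein, was at 37448 ± 2804 TPM in JA.

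**Figure D1:**
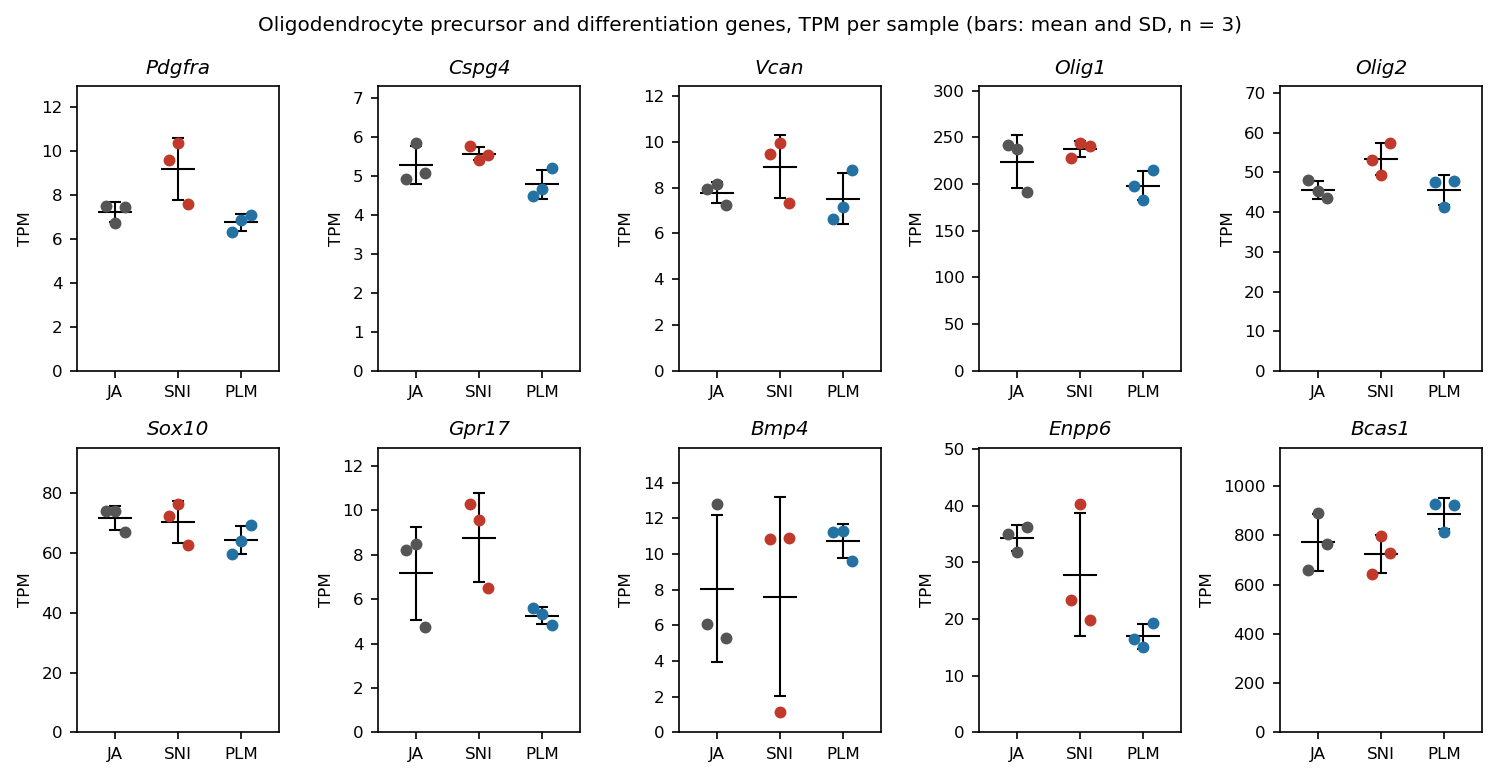
Level in TPM of each of the 10 genes in each of the 9 samples, 1 panel per gene with its own axis from 0, points for samples and bars for group means. The 3 PLM values of Enpp6, from 15.10 to 19.39, lie below the 3 JA values, from 31.79 to 36.25, and 1 SNI value of Bmp4, at 1.16, lies far below the other 8.

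Enpp6 (ENSRNOG00000009660) codes for a choline-specific phosphodiesterase of newly formed oligodendrocytes. The JA samples held 35.01, 31.79 and 36.25 TPM, the SNI samples 23.42, 40.24 and 19.86 TPM, and the PLM samples 16.46, 15.10 and 19.39 TPM. All PLM samples were below all SNI and all JA samples, and the SNI samples were split, with replicate 2 the highest of the 9 and the other two below every JA sample. For PLM versus JA the log2 fold change was -0.98 (SE 0.11, 95% interval -1.25 to -0.71), with an adjusted p of 0.106 in limma. By its p-value it ranked 10 of the 15349 genes tested, and the adjusted p did not pass. After centring the fold change was -0.86 (95% interval -1.12 to -0.59), with an adjusted p of 0.189 in limma. For PLM versus SNI the log2 fold change was -0.62 as deposited and -0.38 centred, with adjusted p-values of 0.127 and 0.502 in limma, and -0.33 as deposited without SNI replicate 2. For SNI versus JA it was -0.36 (95% interval -0.94 to 0.23) as deposited and -0.48 centred. As deposited it was -0.65 without SNI replicate 2 and -0.15 without SNI replicate 3, so these values turned on single SNI samples.

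Because Enpp6 had the clearest separation, the bases before its start are shown. In the RefSeq table of the rat build GRCr8 they lie on the minus strand of chromosome 16, at chr16:52026790-52026978, and read from 5′ to 3′. Shown are the 189 of the 250 bases searched that lie outside the gene as annotated. The deposited table names no coordinates, so the position is that of the reference and not of the files. Capitals mark CTTTGT, which is the SOX core ACAAAG read on the other strand, and an E box, CAAGTG.
Enpp6: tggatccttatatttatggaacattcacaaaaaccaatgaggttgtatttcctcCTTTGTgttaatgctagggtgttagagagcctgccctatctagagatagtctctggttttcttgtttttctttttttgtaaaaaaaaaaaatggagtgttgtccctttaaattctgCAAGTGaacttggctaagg
SOX factors such as Sox10 bind the first kind of site and basic helix-loop-helix factors such as Olig1 and Olig2 the second kind. Searched on both strands in windows of 250 bases before a start, the E box CANNTG was in 65.5% of 33469 rat windows and its form CAGCTG, which is counted among the E boxes as well, in 11.97%. The SOX core was in 16.3% of windows as ACAAAG and in 11.1% of windows as ACAATG. The full 250 bases were searched for Enpp6 as well. Windows were matched by symbol for 7 of the 10 genes, 8 windows in all with 2 for Vcan. Of these 8, 4 held an E box, 1 of them (that of Bmp4) as CAGCTG, and 1, that of Enpp6, held a SOX core. These matches describe letters only.

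Bcas1 (ENSRNOG00000012906), the other gene of the newly formed stage, which stays on in some myelinating cells, stood the other way. Its levels were 660.33, 890.92 and 765.37 TPM in JA, 644.42, 798.02 and 727.37 TPM in SNI, and 924.90, 814.78 and 922.80 TPM in PLM. The 3 PLM samples were above the 3 SNI samples, but by little at the nearest pair, and the JA samples overlapped both groups. The log2 fold change for PLM versus SNI was 0.30 (95% interval 0.07 to 0.53), with an adjusted p of 0.0792 in limma. Centred, it was 0.55 (95% interval 0.27 to 0.82), with an adjusted p of 0.0988. For PLM versus JA it was 0.21 as deposited and 0.33 centred, with intervals that include 0. The 2 genes of this stage therefore had fold changes of opposite sign in both comparisons with PLM, on both scales. The difference between them was not tested.

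Gpr17 (ENSRNOG00000025745), a receptor that marks committed precursors, was at 8.23, 8.49 and 4.75 TPM in JA, at 10.26, 9.54 and 6.50 TPM in SNI and at 5.60, 5.33 and 4.84 TPM in PLM. The PLM samples lay below all SNI samples and were close to each other, while JA replicate 3 was the lowest of the 9. Of the 10 genes it came nearest to the threshold in PLM versus SNI by adjusted p. The log2 fold change was -0.62 (SE 0.16, 95% interval -1.02 to -0.23), with an adjusted p of 0.0525 in limma. It passed with a stricter filter on low TPM (adjusted p = 0.0395), with a pseudocount of 0.1 (adjusted p = 0.0487) and without SNI replicate 3, where the log2 fold change was -0.80 (adjusted p = 0.0244). Centred, the fold change was -0.38 with an adjusted p of 0.311 and the interval, -0.77 to 0.02, included 0.

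Bmp4 (ENSRNOG00000009694), a secreted ligand that committed precursors express and that holds back oligodendrocyte differentiation, varied most of the 10 among the JA and among the SNI samples. It was at 6.09, 12.78 and 5.27 TPM in JA, at 10.82, 1.16 and 10.88 TPM in SNI and at 11.22, 11.30 and 9.61 TPM in PLM. SNI replicate 2 stood alone: the next lowest of the 9 samples was at 5.27 TPM. The log2 fold change for PLM versus SNI was 0.80 (95% interval -0.77 to 2.36) as deposited. Centred, it was 1.05 (95% interval -0.55 to 2.64), with the PLM samples above the SNI samples. As deposited and without SNI replicate 2 it was -0.02. For SNI versus JA it was -0.34, against 0.48 without that sample and 0.01 without JA replicate 2. As deposited, the sign thus turned on a single library in both comparisons, and no value passed in limma.

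Enpp6 and Bmp4 were set beside the markers of Schwann cells, the myelinating cells of nerve roots, because these differed widely between samples of 1 group. The summed level of 8 Schwann cell markers was 239.4, 82.5 and 2220.02 TPM in JA, 220.6, 1236 and 502.8 TPM in SNI and 122.9, 317.04 and 912.2 TPM in PLM. In each group the sample with the largest sum (JA replicate 3, SNI replicate 2 and PLM replicate 3) had the highest Enpp6 and the lowest Bmp4 of its group. The part of this in the results for both genes, that of Enpp6 in PLM versus JA included, was not tested. Sox10, which Schwann cells also express, had its highest value in SNI replicate 2 and its highest PLM value in PLM replicate 3, but its lowest JA value in JA replicate 3.

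**Figure D2:**
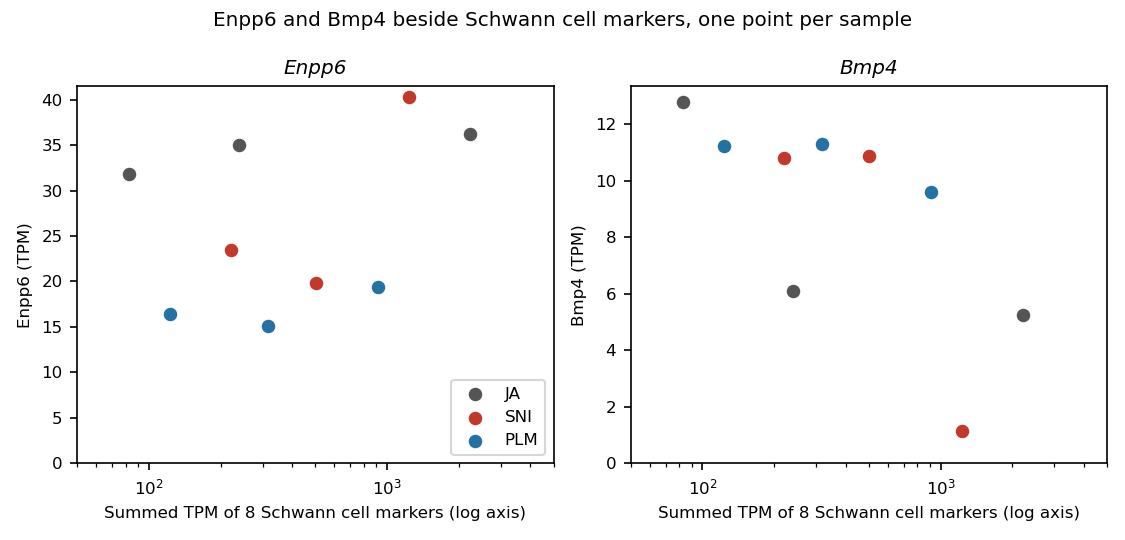
Level of Enpp6 (left) and Bmp4 (right) in TPM against the summed TPM of 8 Schwann cell markers on a log axis, 1 point per sample coloured by group. The PLM sums run from 122.9 to 912.2 TPM and the JA sums from 82.5 to 2220.02 TPM, and the SNI point with the sum of 1236 TPM has the highest Enpp6, 40.24 TPM, and the lowest Bmp4, 1.16 TPM.

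Of the surface markers of precursors, Pdgfra (ENSRNOG00000002244), the receptor for platelet-derived growth factor A, was at 7.49, 6.72 and 7.47 TPM in JA, at 9.60, 10.37 and 7.61 TPM in SNI and at 6.32, 6.88 and 7.08 TPM in PLM. All SNI samples were above all JA and all PLM samples, the nearest by 7.61 against 7.49 TPM. The log2 fold change was 0.30 for SNI versus JA (95% interval -0.01 to 0.61, adjusted p = 0.614 in limma) and -0.38 for PLM versus SNI (95% interval -0.67 to -0.10, adjusted p = 0.0754). Centred, they were 0.18 and -0.14, and the groups overlapped in both comparisons. Cspg4 (ENSRNOG00000017208) was at 4.93, 5.85 and 5.07 TPM in JA, at 5.77, 5.42 and 5.55 TPM in SNI and at 4.50, 4.67 and 5.21 TPM in PLM, with the PLM samples below the SNI samples and within or below the JA range. Its log2 fold change for PLM versus SNI was -0.19 as deposited and 0.06 centred (95% interval -0.11 to 0.24). Vcan (ENSRNOG00000029212), which codes for the matrix proteoglycan versican, was at 7.94, 8.14 and 7.26 TPM in JA, at 9.46, 9.95 and 7.35 TPM in SNI and at 6.61, 7.17 and 8.78 TPM in PLM, and all groups overlapped. Its log2 fold change for PLM versus SNI was -0.22 as deposited and 0.03 centred. Pdgfra and Vcan are also expressed by fibroblasts and Cspg4 by pericytes. The summed pericyte markers were at 247 to 353 TPM in JA, 219 to 292 TPM in SNI and 219 to 321 TPM in PLM, and the groups overlapped. The summed fibroblast and meningeal markers were at 1918 to 1933, 1600 to 1726 and 1476 to 1651 TPM, but most of each sum came from Ptgds, which oligodendrocytes make too, so it says little of the others. Of these markers 3 of 9 were called lower in PLM versus SNI as deposited, where 13.9% of all genes were called, and 1 of 9 centred, where 0.814% were. In PLM versus JA 1 of 9 was called lower on each scale, where 0.0195% of all genes were called as deposited and 0.013% centred. The list's median there was -0.96 as deposited and -0.84 centred. The part of these cells in the 3 genes was not tested.

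The lineage transcription factors were steady between samples. Olig2 (ENSRNOG00000028658) was at 47.99, 45.25 and 43.53 TPM in JA, at 53.02, 49.39 and 57.43 TPM in SNI and at 47.70, 41.26 and 47.74 TPM in PLM. The SNI samples were above the samples of both other groups, and JA and PLM had the same mean, 45.6 TPM. The log2 fold change was 0.22 for SNI versus JA and -0.22 for PLM versus SNI (adjusted p = 0.614 and 0.122 in limma), and 0.10 and 0.03 centred, where the groups overlapped. Olig1 (ENSRNOG00000028648), its neighbour on the chromosome with 0 protein-coding genes between them in the RefSeq table, was at 242.23, 238.02 and 191.09 TPM in JA, at 227.81, 243.93 and 240.66 TPM in SNI and at 197.61, 183.04 and 214.52 TPM in PLM. The PLM samples were below the SNI samples, and JA overlapped both. The log2 fold change for PLM versus SNI was -0.26 (95% interval -0.43 to -0.09, adjusted p = 0.0585 in limma), and -0.01 centred (95% interval -0.20 to 0.18). With a stricter filter on low TPM the value as deposited passed (adjusted p = 0.0475). Sox10 (ENSRNOG00000011305), which drives myelin genes together with Olig factors, was at 74.08, 73.92 and 66.94 TPM in JA, at 72.41, 76.09 and 62.48 TPM in SNI and at 59.68, 63.96 and 69.19 TPM in PLM, and the groups overlapped in every comparison. Its log2 fold change for PLM versus SNI was -0.13 as deposited and 0.12 centred, so the sign followed the scaling.

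**Figure D3:**
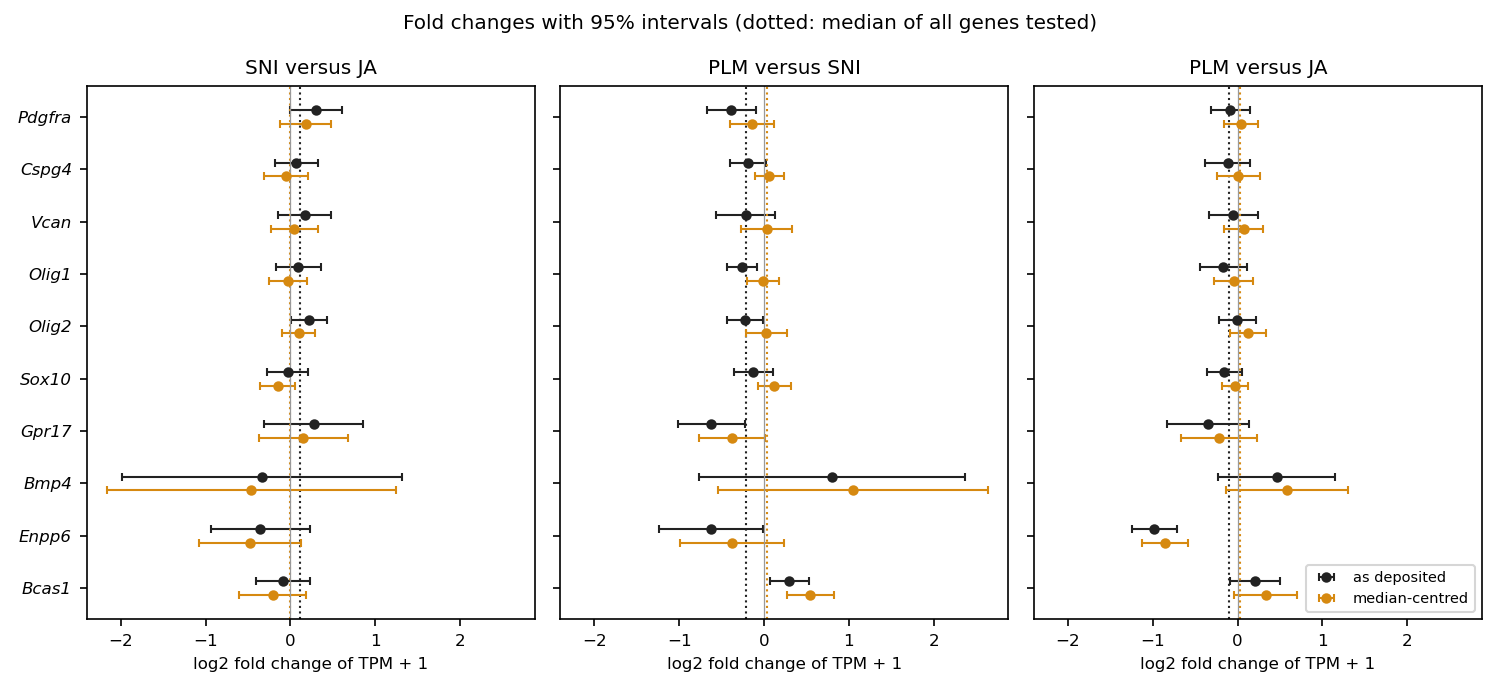
Log2 fold change of TPM + 1 with its 95% interval for each of the 10 genes in SNI versus JA, PLM versus SNI and PLM versus JA, as deposited (black) and median-centred (orange), with dotted lines at the median of all genes tested. The Enpp6 interval of PLM versus JA, -1.25 to -0.71 as deposited, lies away from 0 on both scales, and that of Bmp4 in SNI versus JA is the widest.

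The members were also counted beside all genes tested, with 10 members too few to tell a share near that of all genes from one that is not. In SNI versus JA limma called 0 of 10, as it did 0% of 15557 genes tested, and 1 member (Olig2) was higher at an unadjusted p under 0.05, against 6.11% of all genes. In the same direction 2 members (Pdgfra and Olig2) did not overlap between groups, against 12.1% of all genes. Centred, 0 of 10 were called (0% of all genes), 0 were under the unadjusted threshold, against 4.83% of genes, and 0 were without overlap, against 10.9%. In PLM versus SNI limma called 0 of 10 members, against 13.9% of 15474 genes. At an unadjusted p under 0.05, 5 members (Pdgfra, Olig1, Olig2, Gpr17 and Enpp6) were lower, against 35.8% of genes, and 1 (Bcas1) was higher, against 1.28%. Of the 10, 6 were lower without overlap, against 41.9% of genes, 1 was higher without overlap, against 1.59%, and 8 had a log2 fold change below 0, against 85% of genes. Centred, 0 of 10 were called, against 0.814% of genes, 1 (Bcas1) was higher at an unadjusted p under 0.05, against 10% of genes, and 2 (Bmp4 and Bcas1) were higher without overlap, against 14.1%. In PLM versus JA limma called 0 of 10 members, against 0.0195% of 15349 genes, and 1 (Enpp6) was lower both at an unadjusted p under 0.05, against 10.5% of genes, and without overlap, against 15.7%. Centred, 0 were called, against 0.013% of genes, and Enpp6 was again the 1 member lower at an unadjusted p under 0.05, against 4.72%, and without overlap, against 6.93%. The thresholds of the study, an unadjusted p under 0.05 with an absolute log2 fold change above 1, also called 0 members in each comparison, against 0.688%, 1.65% and 0.938% of genes. The median log2 fold change of the 10 was 0.08, -0.22 and -0.10 in the 3 comparisons, against 0.12, -0.21 and -0.10 for all genes. Each group enters 2 of the comparisons, so their values are not independent.

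The rest of the lineage was read from 4 further lists of 79 genes, 77 of which are in the table. In PLM versus SNI limma called 14 of the 71 genes tested lower and 0 higher, 19.7% against 13.9% of all genes tested. Centred it called 1, which was lower, 1.41% against 0.814%. At an unadjusted p under 0.05, 30 were lower (42.3%, against 35.8% of all genes) and 2 higher (2.82%, against 1.28%), but centred 7 were lower (9.86%, against 6.89%) and 16 higher (22.5%, against 10%), so the balance of directions turned with the scaling. In SNI versus JA limma called 0 of 72. At an unadjusted p under 0.05, 3 were higher (4.17%, against 6.11% of all genes) and 2 lower (2.78%, against 0.99%), and centred 1 was higher (1.39%, against 1.7%) and 9 lower (12.5%, against 3.13%). Of those 9, 7 were mature oligodendrocyte markers. All 21 markers of that list had a centred log2 fold change below 0, against 7999 of 15557 genes. In PLM versus JA limma called 0 of 71. At an unadjusted p under 0.05, 0 were higher (against 1.3% of all genes) and 20 lower (28.2%, against 10.5%), and centred 2 were higher (2.82%, against 5.26%) and 7 lower (9.86%, against 4.72%). Of the other precursor genes 2 of 10 were called lower in PLM versus SNI, with a list median of -0.33 as deposited and -0.08 centred. Ptprz1, a receptor phosphatase of precursors and of astrocytes, had 13.9 ± 3.16 TPM in SNI and 7.62 ± 0.220 TPM in PLM (log2 fold change -0.77, adjusted p = 0.0348 in limma). It had 9.51 ± 2.49 TPM in JA, with JA replicate 3, at 6.63 TPM, below every PLM sample. Cacng4, a subunit that regulates AMPA receptors, had 11.9 ± 0.876 TPM in SNI and 9.09 ± 0.462 TPM in PLM (-0.36, adjusted p = 0.0400 in limma). It had 10.9 ± 1.61 TPM in JA, and neither gene passed centred. Of the other differentiation genes 4 of 17 were called lower, with a median of -0.26 as deposited and -0.01 centred. Those called include Plxnb3, a semaphorin receptor (17.7 ± 0.498 TPM in SNI, 11.5 ± 0.255 TPM in PLM, -0.59, adjusted p = 0.00721). Nfasc, an adhesion protein of the node of Ranvier that neurons make too, was another (64.9 ± 4.46 to 44.5 ± 4.98 TPM, -0.54, adjusted p = 0.0254). So was Fyn, a kinase that acts in myelination (54.3 ± 4.52 to 42.3 ± 1.37 TPM, -0.35, adjusted p = 0.0364). In JA they had 17.1 ± 2.50, 55.6 ± 9.71 and 49.2 ± 6.24 TPM, and none passed centred.

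Of the ligands and regulators of differentiation 7 of 23 were called in PLM versus SNI, each lower, against 13.9% of all genes called. Their median was -0.28 as deposited and -0.03 centred. Id2, an inhibitor of basic helix-loop-helix factors that responds to BMP signals, had 51.39, 51.96 and 37.10 TPM in the SNI samples against 19.31, 15.37 and 17.50 TPM in the PLM samples, and 47.88, 40.53 and 26.58 TPM in the JA samples. Every PLM sample was below every sample of both other groups. Its log2 fold change for PLM versus SNI was -1.37 (adjusted p = 0.00786), and it was the 1 gene of the 4 lists that also passed centred (-1.12, adjusted p = 0.0443). Id4, a related inhibitor, fell from 53.7 ± 3.14 to 28.5 ± 5.35 TPM (-0.90, adjusted p = 0.0158), against 41.7 ± 8.01 TPM in JA. Nog, the secreted BMP antagonist noggin, fell from 7.49 ± 0.545 to 4.34 ± 0.342 TPM (-0.67, adjusted p = 0.0147), against 5.30 ± 2.01 TPM in JA. Genes of mature oligodendrocytes had a median of -0.11 as deposited and 0.14 centred. Of 21, only Gjb1, a gap junction protein that Schwann cells make as well, passed, and it fell from 182.5 ± 7.26 to 145.5 ± 10.7 TPM (-0.33, adjusted p = 0.0355). Their summed level was 51425 to 59213 TPM in JA, 48695 to 51030 TPM in SNI and 52381 to 53320 TPM in PLM, most of it from Mbp. In PLM versus SNI the fold change was below 0 for 14 of these 21 genes as deposited, against 85% of all genes. Centred, it was below 0 for 2, against 6562 of 15474 genes. Mbp had a mean of 32721 ± 1216 TPM in SNI against 36472 ± 1305 TPM in PLM (log2 fold change 0.16, adjusted p = 0.123 in limma).

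**Figure D4:**
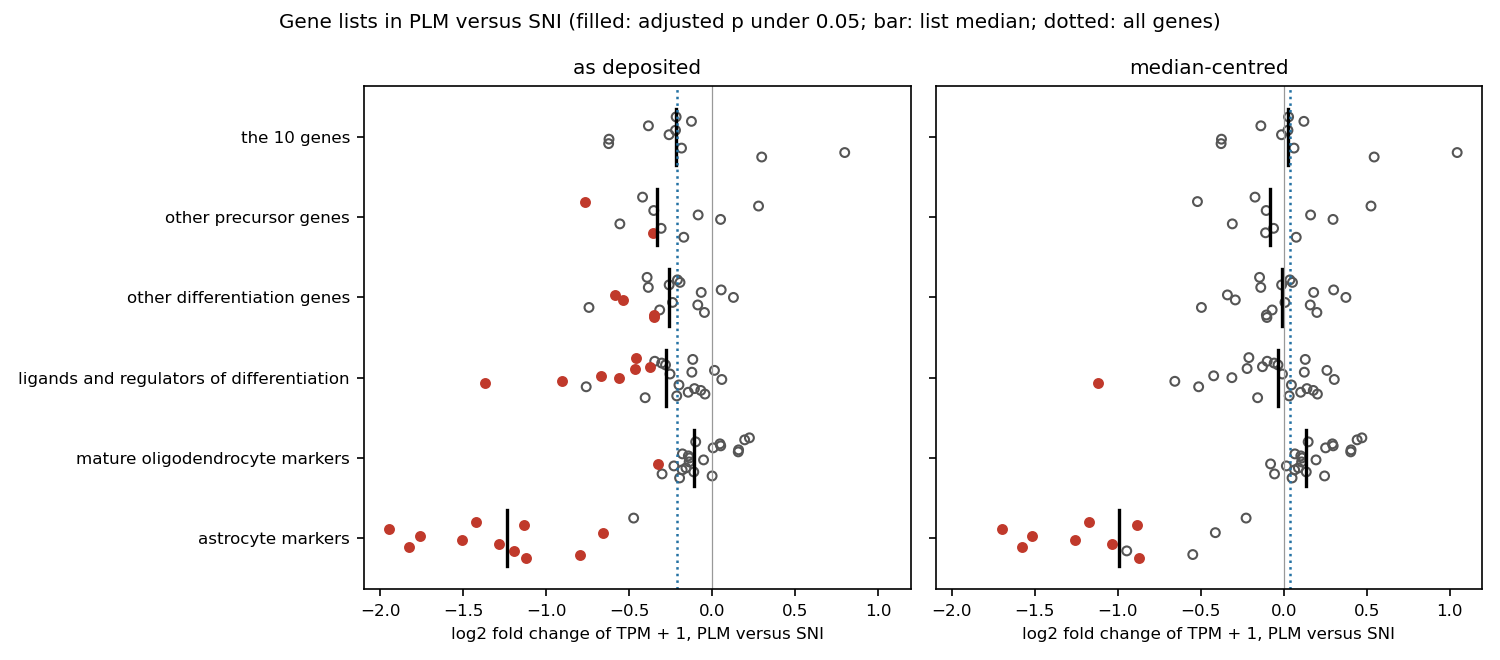
Log2 fold change of TPM + 1 of each gene tested in PLM versus SNI, as deposited and median-centred, for the 10 genes, the 4 related lists and the astrocyte markers, 1 point per gene with a bar at the list's median. The astrocyte markers have the lowest median, -1.24 as deposited, and the 10 genes have a median of -0.22.

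Markers of astrocytes, which share Id2, Id4 and Ptprz1 with the lineage, moved with the comparison. In PLM versus SNI, 11 of 12 were called lower, against 13.9% of all genes called, and 8 centred, against 0.814%. All 12 had a log2 fold change below 0 on both scales, against 85% of all genes as deposited and 6562 of 15474 centred. Their median was -1.24 as deposited and -0.99 centred. The summed level of these markers was 4128 to 6498 TPM in JA, 5455 to 6597 TPM in SNI and 3007 to 3581 TPM in PLM. Gfap, the intermediate filament of astrocytes, fell from 587.8 ± 28.3 to 241.2 ± 22.1 TPM (-1.28, adjusted p = 0.00396). No astrocyte marker was listed at 0. The part of these cells in the values of the related genes was not tested. The 10 members' median, -0.22 as deposited and 0.03 centred, stood beside -0.21 and 0.04 for all genes, with no test of the difference.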

How the data were processed

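The authors trimmed reads with fastp 0.19.5, mapped them with HISAT2 and quantified them with StringTie. The processing notes name the human build GRCh38.p13 although the identifiers are of rat Ensembl genes, so the build used is uncertain. The authors deposited 1 table of TPM values for 9 samples, corrected for transcript length and summing to the same total in every sample. Depth per sample is unknown. Here, log2(TPM + 1) was compared between pairs of groups (3 against 3 samples, grouped by the labels) with limma 3.58.1 in R 4.3.3, using a variance trend and no covariate. Genes averaging under 1 TPM in the 6 samples of a fit were left out. P-values were adjusted by Benjamini-Hochberg over all genes tested. The fits were tested on simulated data. The 10 genes were all named. Of each related list the 3 genes with the smallest p among those called were named, and of marker lists the first gene; 1 Schwann cell marker is not reported here and was left out of its list. The members and lists were chosen with earlier results of these data known. Alternatives were median-centring, quantile normalization, rescaling without mitochondrial genes, no filter, at least 1 TPM in every sample, a pseudocount of 0.1, the replicate number as a block, 1 fit of all 9 samples, the study's thresholds and leaving out each sample. Promoter windows came from RefSeq (GRCr8), matched by symbol; those of Bcas1, Olig1 and Sox10 were not used here.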

Additional observations from a re-analysis of the deposited data

How the results depend on the processing

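With 3 samples a group and no read depth, differences smaller than the intervals given cannot be shown. In PLM versus SNI the count of members called, 0, became 2 with at least 1 TPM in every sample (Olig1 and Gpr17) and 1 with a pseudocount of 0.1 (Gpr17); leaving out 1 sample gave 0 to 1, the 1 being Gpr17 without SNI replicate 3. In SNI versus JA and PLM versus JA it stayed 0 under every alternative run. For Enpp6 in PLM versus JA, 15 settings gave log2 fold changes from -1.07 to -0.86 and adjusted p-values from 0.0662 to 0.359.

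The 14 related genes called in PLM versus SNI became 1 centred, 1 with quantile normalization, 3 rescaled without mitochondrial genes, 9 with no filter, 20 with at least 1 TPM in every sample, 15 with a pseudocount of 0.1, 4 in the fit to all 9 samples, 1 with the replicate block and 2 to 7 without 1 sample (2 without PLM replicate 1 or 2, 3 without SNI replicate 1, 6 without PLM replicate 3, 7 without SNI replicate 2 or 3). Over all genes in PLM versus SNI, 2148 called became 126 centred, 155 with quantile normalization, 283 rescaled, 1258 with no filter, 2639 with at least 1 TPM in every sample, 2214 with a pseudocount of 0.1, 471 with all 9 samples, 152 with the replicate block, 255 at the study's thresholds, 1494 without SNI replicate 2 and 275 to 700 without any other sample. In SNI versus JA, 0 became 1 with no filter, 107 at the study's thresholds and 1 to 8 without 1 sample. In PLM versus JA, 3 became 1 with no filter, 5 with a pseudocount of 0.1, 1 with all 9 samples, 1 with the replicate block, 144 at the study's thresholds and 3 to 22 without 1 sample. The causes were not tested. Whether the replicate numbers pair the samples cannot be told from 3 samples a group. The 9 pairs of the same number deviated together at r from -0.046 to 0.126, 2 of them over 0.1. The 18 pairs of different number did so at r from -0.192 to 0.136, 1 of them over 0.1. Of 140 alternative values for the members in each comparison, 10 (SNI versus JA), 9 (PLM versus SNI) and 13 (PLM versus JA) changed sign without being called on either side.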
